A study of Rattus norvegicus with 24 samples.

Results

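The endothelial genes of the lung examined here are Pecam1, Cdh5, Cldn5, Kdr, Tek, Tie1, Vwf, Ednrb, Car4 and Plvap, a list of 10 genes used to mark the cells that line blood vessels. They were found on the array by the RefSeq accession of each probe, and 9 of the 10 had a probe, 1 probe each, among 21261 genes or unnamed probes tested. Vwf, which encodes von Willebrand factor, was not matched and is not analysed here. Each of the 9 probes was well above background on all 24 arrays, so the labelled tissue carried every measured marker of the list. These markers give no measure of how much of the tissue was endothelium, and in whole lung fewer endothelial cells and less RNA per cell cannot be told apart.

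The samples were lungs of 24 Fischer-344 rats of both sexes, 7 to 8 weeks old when obtained, with 6 rats (3 males and 3 females) in each of 4 groups. The control group breathed filtered clean air, and the other groups inhaled hexanal, a volatile aldehyde, at 600, 1000 or 1500 ppm for 4 h a day on 5 days a week. The labels give an exposure of 5 weeks and the study's methods 4 weeks, and the labels name the doses both in ppm and in mg/m3. Total RNA was labelled with Cy3 and hybridised to one-colour Agilent arrays, 4 rats to a slide on 6 slides. Values are log2 signals relative to the 75th percentile of their array, so 0 is the level of the 75th percentile probe, and the signals of different probes are not set against each other. That percentile lay between 1701 and 3130 intensity units, and 70.7 to 81.9% of probes were well above background on each array. The rat is the replicate, and p-values measure the spread between rats. The 3 doses were compared with the same 6 control rats, and no slide held control rats together with rats of 1000 or 1500 ppm.

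Endothelial cells form the inner wall of the vessels, and in the alveoli they meet the thin epithelium across which gas is exchanged. PECAM-1, VE-cadherin (Cdh5) and claudin-5 (Cldn5) hold neighbouring endothelial cells together. The receptor kinases encoded by Kdr and Tek receive the vascular endothelial growth factor and angiopoietin signals that maintain the vessel, and Tie1 encodes an orphan partner of the Tek receptor. The alveolar capillary contains at least a pair of endothelial cell types, a gas-exchange type rich in Car4 and Ednrb and a general type rich in Plvap.

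The promoter table of RefSeq (assembly GRCr8) held 6 of the 10 genes, namely Kdr, Tie1, Cldn5, Ednrb, Car4 and Plvap. Sequences are given for 2 pairs, Kdr with Plvap and Cldn5 with Tie1, as examples. Over 24 arrays with dose group means removed, Pearson's r was 0.74 and 0.59 for these pairs. With sex means removed too, the values of these pairs were 0.85 and 0.35, and after quantile normalization 0.50 and 0.61. They were not the only such pairs of the 6 genes. With group means removed, Kdr with Car4 was at 0.74 and Car4 with Plvap at 0.60. The 250 bases before the start of each gene are written 5′ to 3′ on the strand of the gene. Capitals mark matches to AGGAAG, 1 form of the motif bound by ETS family factors, or to its reverse complement CTTCCT. Other forms of that motif were not searched. They lie at chr14:32571813-32572062 (+ strand) for Kdr, chr16:18231280-18231529 (- strand) for Plvap, chr11:95718599-95718848 (- strand) for Cldn5 and chr5:137304982-137305231 (- strand) for Tie1.
Kdr: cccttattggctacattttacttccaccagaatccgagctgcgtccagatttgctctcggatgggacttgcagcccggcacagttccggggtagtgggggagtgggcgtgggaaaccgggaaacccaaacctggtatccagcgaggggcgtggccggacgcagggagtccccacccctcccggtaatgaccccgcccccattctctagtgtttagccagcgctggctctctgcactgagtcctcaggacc
Plvap: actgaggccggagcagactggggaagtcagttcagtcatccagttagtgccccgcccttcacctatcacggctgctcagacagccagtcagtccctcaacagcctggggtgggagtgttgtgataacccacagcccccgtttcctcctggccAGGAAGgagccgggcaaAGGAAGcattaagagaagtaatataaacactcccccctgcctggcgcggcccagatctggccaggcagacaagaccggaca
Cldn5: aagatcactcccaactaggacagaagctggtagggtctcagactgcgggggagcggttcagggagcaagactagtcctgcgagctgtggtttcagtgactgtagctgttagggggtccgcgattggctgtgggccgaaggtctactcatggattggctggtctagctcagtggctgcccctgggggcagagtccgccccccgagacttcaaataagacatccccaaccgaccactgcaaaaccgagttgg
Tie1: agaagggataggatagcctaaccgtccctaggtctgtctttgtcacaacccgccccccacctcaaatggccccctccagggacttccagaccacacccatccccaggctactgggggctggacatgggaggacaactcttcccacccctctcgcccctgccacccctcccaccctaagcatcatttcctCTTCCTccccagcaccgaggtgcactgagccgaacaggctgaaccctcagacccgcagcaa
The letters AGGAAG were found on either strand in 2 of the 6 promoters, Plvap and Tie1, against 29.4% of 27457 promoters of the same length. Thus each of the 2 pairs printed had 1 promoter with the letters and 1 without. The forkhead letters TGTTTAC, the GATA letters AGATAA and the SOX letters ACAATG were in none of the 6, against 3.25%, 10% and 10.9% of all promoters, and the TATA box letters TATAAA were in Plvap, against 13.1%. The GC content of the 6 promoters was 53.2 to 61.6%, and the median of all promoters was 52.0%.

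None of the 9 genes was called at any dose, where a call was a change of at least 1.5-fold with an unadjusted limma p-value under 0.05. The study used the same 2 thresholds, but with the p-value of an unpaired t-test. Over all features tested, the share called was 0.607, 1.63 and 1.23% at 600, 1000 and 1500 ppm. With a Benjamini-Hochberg adjusted p-value under 0.05 none of the 9 passed either, against 0, 0.0188 and 0.0047% of all features (0, 4 and 1). Without adjustment, 0, 1 and 0 of the 9 genes had a limma p-value under 0.05, the 1 being Tek at 1000 ppm, while 4.35, 8.97 and 6.95% of all features did. The unpaired t-test of the study's methods called 0 of the 9 at each dose and gave 0 with a p-value under 0.05. Over all features it called 87, 296 and 187, against 129, 347 and 262 with limma.

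The differences were small and mostly downward. Compared with the control group, 5, 8 and 6 of 9 genes had a lower mean at 600, 1000 and 1500 ppm, and the median log2 differences were -0.02, -0.12 and -0.14. The medians over all features were 0.00, 0.01 and 0.01. The single differences ran from -0.26 to 0.09, and for every gene the control rats overlapped the rats of each dose. Of all features, 0.278, 0.456 and 0.494% had groups that did not overlap at 600, 1000 and 1500 ppm. The 95% intervals bounded the change within 1.5-fold in either direction for 9 of 9 genes at 600 and 1000 ppm and for 8 of 9 at 1500 ppm, the exception being Cldn5. Intervals that narrow were found for 75.8, 72.4 and 73.5% of all features.

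**Figure D1:**
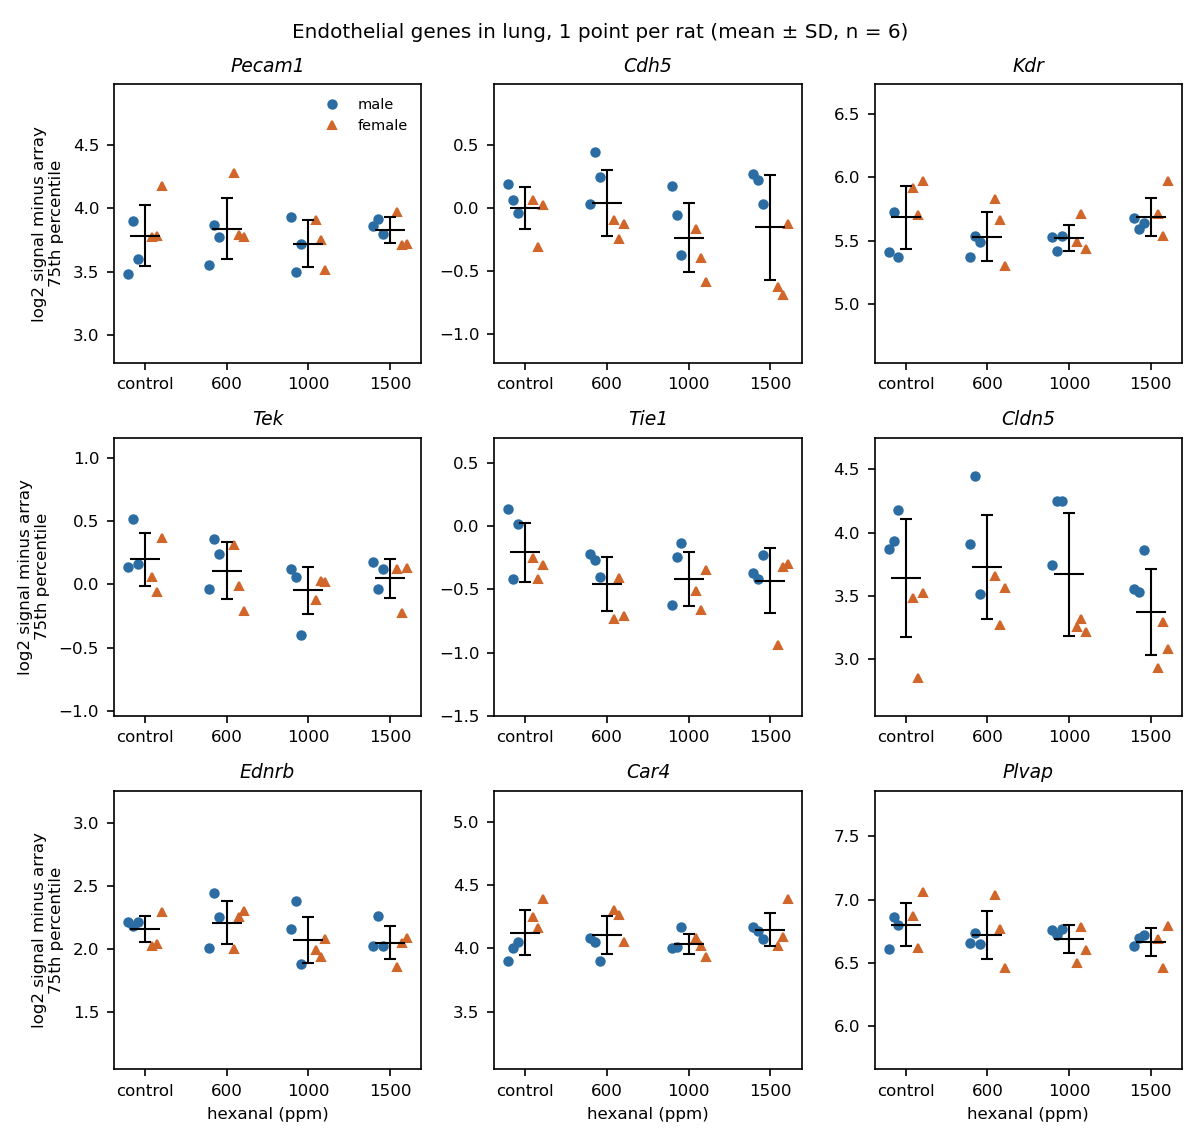
Log2 signal relative to the 75th percentile of the array (vertical axis, same span in each panel) for the 9 measured endothelial genes, by hexanal dose in ppm. Each point is 1 rat (circles male, triangles female), bars give the mean ± SD of 6 rats, and in each panel the exposed rats overlap the control rats.

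Among the junction genes, Pecam1, an adhesion molecule at the borders of endothelial cells, ran from 3.48 to 4.18 (median 3.78) in the control group and from 3.55 to 4.28 (3.78), 3.50 to 3.93 (3.73) and 3.71 to 3.97 (3.83) at 600, 1000 and 1500 ppm. The exposed rats lay on both sides of the control median at each dose. The log2 differences from control were 0.05 ± 0.12, -0.06 ± 0.12 and 0.04 ± 0.12 (± SE, 6 rats per group), smaller than the standard error in each case.

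Cdh5, the cadherin of endothelial adherens junctions, ran from -0.31 to 0.19 (median 0.04) in control rats, from -0.25 to 0.44 (-0.03) at 600 ppm, from -0.59 to 0.17 (-0.27) at 1000 ppm and from -0.69 to 0.27 (-0.05) at 1500 ppm. At 1000 ppm 3 of 6 rats were below every control rat, and at 1500 ppm 2 were below and 2 above all of them. The log2 differences were 0.04 ± 0.16, -0.24 ± 0.16 and -0.15 ± 0.16, with limma adjusted p-values of 0.998, 0.69 and 0.883.

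Cldn5, the principal claudin of endothelial tight junctions, varied most between rats of a group. Its level ran from 2.85 to 4.18 (median 3.69) in the control group, from 3.27 to 4.45 (3.61) at 600 ppm, from 3.21 to 4.25 (3.53) at 1000 ppm and from 2.93 to 3.86 (3.41) at 1500 ppm. At 1500 ppm every rat was within the range of the control rats, although the group had the lowest mean, with a log2 difference of -0.26 ± 0.24 and an adjusted p-value of 0.857 (limma). The 95% interval of that difference, 0.591 to 1.17 as a fold, was the widest of the 9 genes. The differences at 600 and 1000 ppm were 0.09 and 0.03.

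The receptor Kdr, the main signalling receptor for VEGF-A on endothelium, ran from 5.37 to 5.97 (median 5.71) in control rats and from 5.30 to 5.83 (5.52), 5.42 to 5.71 (5.51) and 5.54 to 5.97 (5.66) at the rising doses. At 600 ppm 2 of 6 rats were below every control rat, and at 1000 and 1500 ppm none was. Log2 differences were -0.15 ± 0.11, -0.16 ± 0.11 and 0.01 ± 0.11.

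Tek, which encodes the angiopoietin receptor Tie2, ran from -0.06 to 0.52 (median 0.15) in the control group, from -0.21 to 0.36 (0.12) at 600 ppm, from -0.40 to 0.12 (0.03) at 1000 ppm and from -0.23 to 0.18 (0.12) at 1500 ppm. At 1000 ppm 2 of 6 rats lay below every control rat and the rest within the control range. The difference at that dose was -0.25 ± 0.11 (log2; 0.842-fold), with an unadjusted limma p-value of 0.0396 and an adjusted one of 0.537. The differences at 600 and 1500 ppm were -0.09 and -0.15.

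Tie1, the orphan partner receptor of Tie2, ran from -0.42 to 0.14 (median -0.28) in control rats, from -0.73 to -0.22 (-0.40) at 600 ppm, from -0.66 to -0.13 (-0.43) at 1000 ppm and from -0.94 to -0.23 (-0.34) at 1500 ppm. Below every control rat were 2, 3 and 2 of the 6 rats, and none was above. The size was nearly the same at each dose, with log2 differences of -0.25, -0.21 and -0.22 (each ± 0.13) and adjusted p-values of 0.996, 0.644 and 0.769 (limma). At 1500 ppm 1 female, at -0.94, stood apart from the other rats, the nearest of which was at -0.42.

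The capillary genes varied least. Ednrb, the endothelin receptor type B, ran from 2.02 to 2.29 in control rats and from 1.86 to 2.44 over the exposed rats, and its log2 differences were 0.05, -0.09 and -0.11 (each ± 0.09). Car4, a carbonic anhydrase anchored on the capillary surface, ran from 3.90 to 4.39 both in the control group and over all 24 rats, so no exposed rat was outside the control range, and its differences were -0.02, -0.09 and 0.02 (each ± 0.08). Plvap, a component of the diaphragms of endothelial caveolae and fenestrae, ran from 6.61 to 7.06 in the control group and from 6.46 to 7.04 over the exposed rats, with differences of -0.08, -0.12 and -0.14 (each ± 0.09). The mean of Plvap was below control at each dose, with a limma adjusted p-value of 0.8 at 1500 ppm, but with slide as a fixed block the differences at 1000 and 1500 ppm were 0.08 and 0.06.

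**Figure D2:**
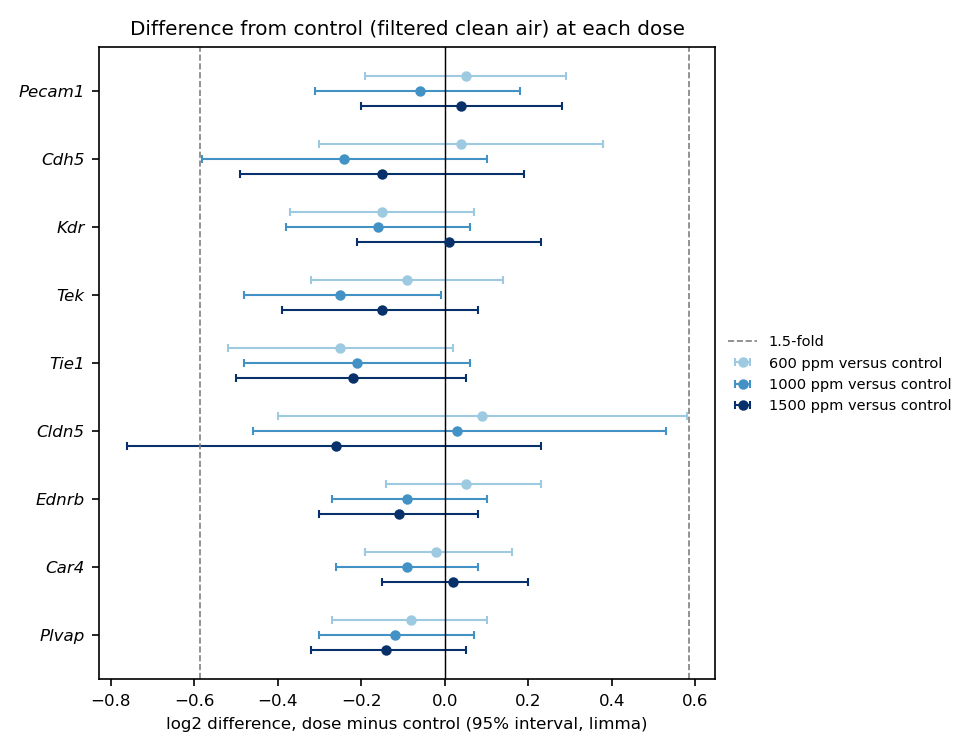
Log2 difference from control (horizontal axis) with its 95% interval from limma for the 9 endothelial genes at 600, 1000 and 1500 ppm, 6 rats per group and the same control rats throughout. Dashed lines mark 1.5-fold, and only the interval of Cldn5 at 1500 ppm, which reaches -0.76, crosses one.

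A straight line was also fitted through the doses. The slope was negative for 8 of 9 genes, from -0.17 ± 0.15 for Cldn5 to 0.01 ± 0.07 for Pecam1 in log2 units per 1000 ppm, with a median of -0.09. None passed an adjusted p-value of 0.05 (limma), as against 0.0141% of all features, and none had an unadjusted p-value under 0.05, against 8.46%. The smallest limma adjusted p-value of the 9 slopes was 0.664, for Tek.

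Within a slide, doses can be compared for rats of 1 sex that were hybridised together. On the slide with 3 male control rats and 1 male of 600 ppm, 1 of 9 genes was higher in the exposed rat, with a median difference of -0.10, and on the matching female slide 5 of 9 were higher, with a median of 0.04. Between 1000 and 600 ppm, 3 of 9 genes were higher at the higher dose in males and 4 of 9 in females. Between 1500 and 1000 ppm, 5 of 9 were higher at the higher dose on both slides, with medians of 0.10 and 0.04. With slide as a fixed term the median difference at 1500 ppm turned from -0.14 to 0.10, with Cdh5 at 0.11, Tek at 0.10 and Plvap at 0.06, and none of the 9 genes was called. The number of rats in each of these comparisons was 4, and no test was made within a slide.

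Markers of heart muscle were higher on average in the exposed groups. The summed linear level of the 10 heart muscle genes tested ran from 3.46 to 40.1 (median 6.86) in control rats and from 5.13 to 67.6 (18.9) at 600 ppm. It ran from 8.77 to 142 (median 58.3) at 1000 ppm and from 3.57 to 145 (14.8) at 1500 ppm. A further one, Nppa, was well above background on 5 of 24 arrays and not tested, whereas Actc1, Tnnt2 and Myl7 were above it on all 24. At 1000 ppm all 10 were higher and 5 were called, with a median log2 difference of 3.08, while 1.63% of all features were called. The 5 had unadjusted limma p-values of 0.0167 to 0.045 and adjusted ones of 0.516 to 0.547. At 600 and 1500 ppm 0 of the 10 were called, with median log2 differences of 1.36 and 0.64, while 0.607 and 1.23% of all features were called. At 1500 ppm the effect in females minus that in males had a median of 5.26 for these genes. None passed an adjusted p-value of 0.05 (limma) for it, against 4.97% of all features, and the sexes were on different slides. With the mean heart muscle level as a covariate, the median difference of the 9 endothelial genes was 0.03, -0.02 and -0.11 at the 3 doses in place of -0.02, -0.12 and -0.14, and again none was called. Of 12 lung epithelium markers, 0 were called at any dose (medians 0.08, 0.05 and -0.06), and of 9 leukocyte markers tested, 0 were called. Cnn1, a smooth muscle calponin, was higher at 1000 ppm (log2 difference 0.60, adjusted p-value 0.516, limma), and Alas2, the heme synthesis enzyme of red cells, was lower at 1500 ppm (-0.81, adjusted p-value 0.717), each the only call of its list. None of the 6 platelet markers or the 9 fibroblast and mesothelium markers tested was called at any dose.

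Females and males differed in the levels of 2 of the 9 genes, Cldn5 and Cdh5, a share near that of all features. Each slide held rats of 1 sex, 3 slides per sex, and these cannot be told apart. Values with slide as a random block are given beside the result. That fit takes 1 slide correlation for all features, 0.11, so its p-values do not separate sex from slide for a single gene. At an adjusted p-value under 0.05 (limma, dose as a term), 2 of 9 genes differed, Cldn5 and Cdh5, both lower in females, whereas 26.3% of all features differed, 10.1% being lower in females. The share of the 9 genes was near that background. Without adjustment 5 of 9 had a limma p-value under 0.05, against 39.1% of all features. Over all rats the sexes overlapped for each of the 9 genes, as for all but 0.466% of features.

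Cldn5 ran from 2.85 to 3.66 (median 3.28) in 12 females and from 3.51 to 4.45 (median 3.89) in 12 males. Of the females 9 were below every male, and within the control, 1000 ppm and 1500 ppm groups the sexes (3 against 3 rats) did not overlap, as for 29.7, 20.1 and 33.2% of all features. The log2 difference, females minus males, was -0.63 ± 0.11 (0.645-fold, limma adjusted p-value 0.000465). It was -0.71 in the control group and -0.46, -0.82 and -0.55 at 600, 1000 and 1500 ppm. With slide as a random block the adjusted p-value was 0.00402.

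Cdh5 ran from -0.69 to 0.06 (median -0.21) in females and from -0.37 to 0.44 (median 0.11) in males, and the sexes did not overlap at 600 and 1500 ppm, as for 23.6 and 33.2% of all features. The log2 difference was -0.37 ± 0.08 (0.772-fold, limma adjusted p-value 0.00315), and 0.0155 with slide as a random block. By dose it was -0.15 in the control group and -0.39, -0.30 and -0.65 at 600, 1000 and 1500 ppm. Tie1 was at -0.23 ± 0.08 (adjusted p-value 0.0526), Kdr at 0.16 ± 0.07 (0.0844) and Car4 at 0.11 ± 0.05 (0.0901), and Pecam1, Tek, Ednrb and Plvap lay between -0.10 and 0.10. Thus the other 7 genes did not pass the threshold of limma, although Car4 was higher in all 3 control females than in the control males, where 29.7% of features had sexes that did not overlap.

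**Figure D3:**
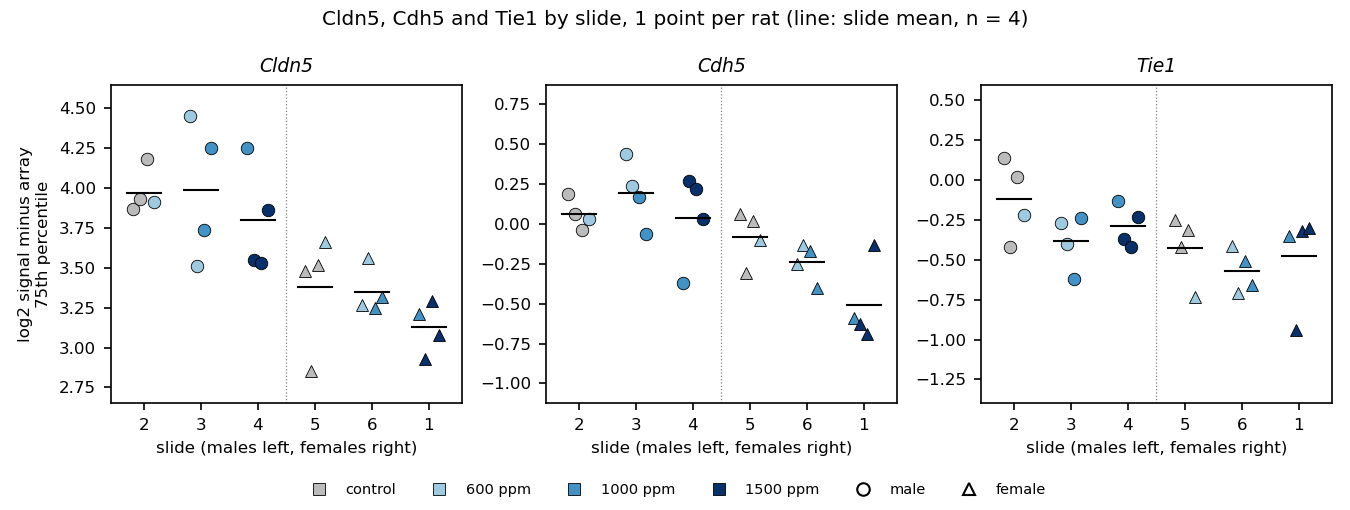
Log2 signal relative to the array's 75th percentile (vertical axis, same span in each panel) for Cldn5, Cdh5 and Tie1 in each rat by slide, males on the left 3 slides and females on the right 3. Colours give the dose, circles are males, triangles are females, and lines are slide means of 4 rats; the slide means of Cldn5 are 3.80 to 3.99 for males and 3.13 to 3.38 for females.

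The effect of hexanal was not shown to differ between the sexes. For the effect in females minus that in males, 0 of 9 genes passed an adjusted p-value of 0.05 (limma) at each dose, whereas 0, 0 and 4.97% of all features did at 600, 1000 and 1500 ppm. Unadjusted limma p-values under 0.05 were found for 0, 1 and 1 of the 9 genes, against 5.02, 9.43 and 20.2% of all features. The 2 genes were Car4 at 1000 ppm (-0.34 ± 0.14, adjusted p-value 0.464) and Cdh5 at 1500 ppm (-0.51 ± 0.23, adjusted p-value 0.226). For Cdh5 the means at 1500 ppm were -0.48 in females and 0.17 in males, and those of the control group -0.08 and 0.07.

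Between rats, Car4, Ednrb and Plvap had the smallest standard deviations within dose groups (0.139, 0.151 and 0.151 log2 units) and Cldn5 the largest (0.430), and the median of the 9 genes was 0.197 against 0.234 over all features. With sex removed as well, the value of Cldn5 was 0.273, and the median of the 9 genes, 0.202, was close to that of all features, 0.201.

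The 9 genes did not vary as 1 block. As a description over 24 arrays, with group means removed, Pearson's r was 0.74 for Kdr with Car4 and for Kdr with Plvap, 0.64 for Kdr with Pecam1, 0.60 for Car4 with Plvap and 0.55 for Tek with Plvap. Cldn5 had 0.59 with Tie1 and 0.56 with Cdh5, but these were 0.35 and 0.08 with sex means removed as well, and 0.30 and -0.14 with slide means removed. Kdr with Plvap was at 0.85 and 0.69 in the same settings. After quantile normalization, with group means removed, Kdr with Plvap was at 0.50 and Car4 with Plvap at 0.36. Pecam1 with Plvap fell from 0.58 to 0.03 there, while Kdr with Car4 was at 0.76 and Kdr with Pecam1 at 0.55. Cdh5 also had 0.49 with Ednrb and 0.45 with Tek, and these were 0.42 and 0.49 with sex means removed. The lowest coefficient was -0.64, for Pecam1 with Tie1. Of 36 pairs 21 were above 0 and 8 above 0.5, and the median was 0.20. The median was 0.27 with group and sex means removed, 0.25 with slide means removed and 0.18 after quantile normalization, where 4 pairs were above 0.5. The points share arrays, slides and the scaling to 1 percentile per array, which moves every gene of an array together.

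**Figure D4:**
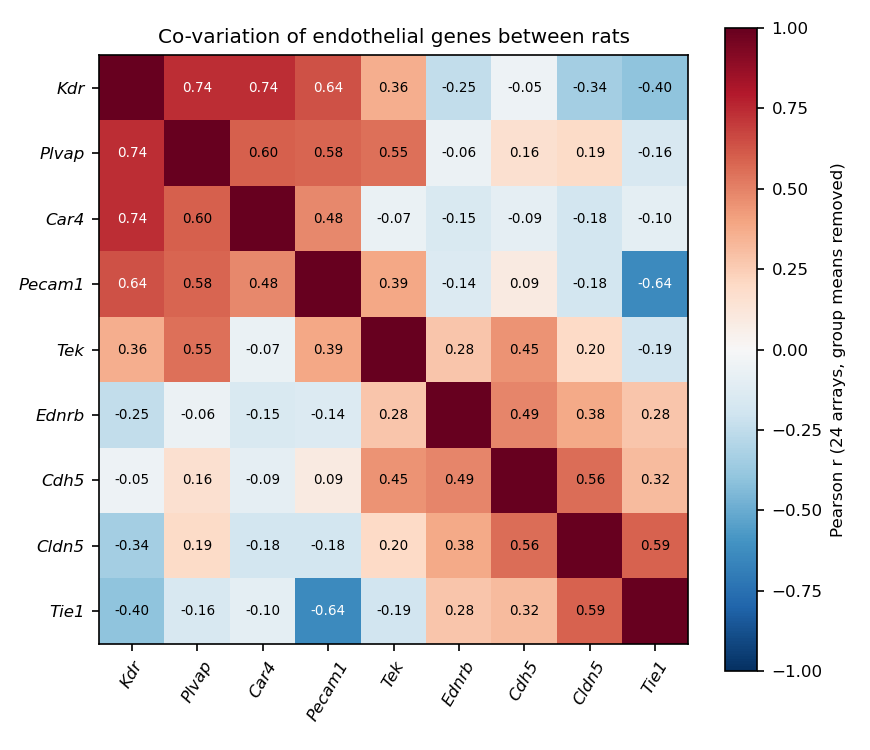
Pearson's r between the log2 signals of each pair of the 9 endothelial genes over 24 arrays with group means removed, on a colour scale from -1 (blue) to 1 (red). Kdr, Plvap, Car4 and Pecam1 form a red block at the upper left (0.48 to 0.74, and 0.03 to 0.76 after quantile normalization). Cldn5 is red with Cdh5 and Tie1 at the lower right (0.56 and 0.59, which are 0.08 and 0.35 with sex means removed as well).

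The genes most like the mean of the 9, by Pearson's r over the same 24 arrays, were Mapt (0.89), Cav1 (0.87), Pla1a (0.86), Mfsd14b (0.86) and Ipmk (0.86), with group means removed. Cav1 encodes caveolin-1, the coat protein of the caveolae that are abundant in endothelium and in alveolar type I cells, and Mapt encodes the microtubule-binding protein tau. With sex means removed too these values were 0.83, 0.82, 0.80, 0.81 and 0.81. An r above 0.5 with the mean was found for 8.15% of all features.

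In the surrounding pathways, 82 of 95 further endothelial genes, taken from 6 lists and each counted once, were tested. The others had no matched probe or none that passed the filter on dim probes. None was called higher. Called lower were 1, 2 and 4 genes (1.22, 2.44 and 4.88%) at 600, 1000 and 1500 ppm, against 0.437, 0.339 and 0.531% of all features. The lists were chosen with earlier results of these data known, so a share above that of all features is not a test. No adjusted limma p-value was under 0.05, and 2, 10 and 12 of the 82 genes had an unadjusted one under 0.05, against 4.35, 8.97 and 6.95% of all features. The median log2 differences were -0.02, -0.10 and -0.07. The called genes were Klf2, Klf4, Sox17, Edn1 and Fibin.

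Klf2, the transcription factor that laminar flow induces in endothelium, ran from -0.48 to 1.06 (median 0.51) in control rats, and from -0.35 to 0.54 (-0.01), -0.88 to -0.11 (-0.22) and -1.14 to -0.22 (-0.53) at the rising doses. The groups overlapped at each dose, with the lowest control rat below the highest rats of each dose. The log2 differences were -0.36, -0.78 and -1.04 (each ± 0.23), the latter 2 called, with limma adjusted p-values of 0.996, 0.516 and 0.178. The slope was -0.72 ± 0.14 per 1000 ppm with an adjusted p-value of 0.077.

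Klf4, a related factor also made by epithelium and muscle, ran from 2.32 to 3.23 (median 2.73) in control rats and from 2.12 to 2.96 (2.56), 1.96 to 2.62 (2.34) and 1.62 to 2.23 (2.10) at the rising doses. At 1500 ppm all 6 rats were below all 6 control rats. The difference was -0.71 ± 0.16 at 1500 ppm (called, adjusted p-value 0.155, limma) and -0.45 ± 0.16 at 1000 ppm (not called), and the slope was -0.49 ± 0.10 (adjusted p-value 0.077).

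Sox17, a factor of arterial endothelium, ran from -2.78 to -1.90 in control rats and from -3.67 to -2.58 at 1500 ppm, with overlap of the groups, and was called at that dose alone, with a difference of -0.71 ± 0.21 and an adjusted p-value of 0.446 (limma). Its mean was -2.30 in control females and -3.52 in females of 1500 ppm, and -2.58 and -2.79 in males. The ratio of the effect in females to that in males was 0.499 (SE 0.32 on the log2 scale, limma adjusted p-value 0.0797), which did not pass. Edn1, which encodes the vasoconstrictor endothelin-1, ran from -1.26 to 0.52 in control rats, from -1.72 to -0.68 at 600 ppm, from -1.89 to -0.98 at 1000 ppm and from -1.58 to -0.77 at 1500 ppm, so the lowest control rats overlapped the exposed ones. Its differences were -0.66, -0.75 and -0.56 (each ± 0.26), called at 600 and 1000 ppm with adjusted p-values of 0.996 and 0.516. The call at 600 ppm was lost without control rat 1 (-0.56), control rat 23 (-0.45) or the rat 27 of 600 ppm (-0.55), and that at 1000 ppm without control rat 23 (-0.55). Fibin, listed as a capillary subtype gene, was called at 1500 ppm (-0.77 ± 0.34, adjusted p-value 0.695), a call that was lost without any 1 of control rats 1 (-0.69), 2 (-0.72) and 3 (-0.68) or rats 36 (-0.50), 37 (-0.68) and 38 (-0.75) of 1500 ppm.

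**Figure D5:**
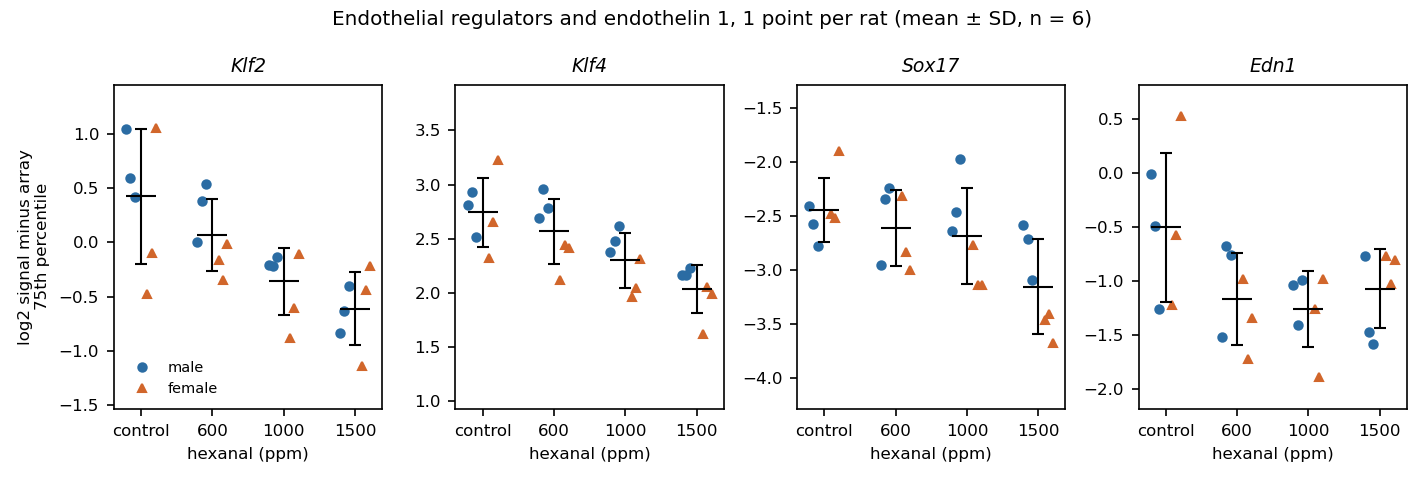
Log2 signal relative to the array's 75th percentile (vertical axis, same span in each panel) of Klf2, Klf4, Sox17 and Edn1 by hexanal dose in ppm. Each point is 1 rat (circles male, triangles female) and bars give the mean ± SD of 6 rats; the Klf4 points at 1500 ppm, 1.62 to 2.23, lie below all control points.

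By list, the endothelial transcription factors had 17 genes tested with 0, 1 and 3 called lower at the 3 doses and medians of -0.04, -0.15 and -0.02. The other surface and secreted genes had 27 tested with 1, 1 and 0 called lower, and the capillary subtype genes, which include Car4, Ednrb and Plvap, had 12 tested with 0, 0 and 1. Of VEGF and angiopoietin signalling 13 genes were tested, which include Kdr, Tek and Tie1, and 0 were called. Of these 9, 12 and 7 were lower at 600, 1000 and 1500 ppm, with medians of -0.09, -0.16 and -0.04. Nrp1, a co-receptor for VEGF, was the lowest of these at 1000 ppm, at -0.48 ± 0.21 (adjusted p-value 0.526, limma). No gene was called among 10 arterial, venous and lymphatic genes and 10 activation genes. In the former Bmx, a kinase of arterial endothelium, was at 0.49 ± 0.22 at 1000 ppm and Slc6a2, the noradrenaline transporter, at -0.49 ± 0.15 at 1500 ppm, and among activation genes the chemokine Ccl2 was at 0.60 ± 0.30 at 1500 ppm.

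Between the sexes, 26 of the 82 further endothelial genes (31.7%) passed an adjusted p-value of 0.05 (limma), 6 higher and 20 lower in females, against 16.2% and 10.1% of all features. Among those lower in females were the junction molecule Esam (-0.29 ± 0.06), the nitric oxide synthase Nos3 (-0.43 ± 0.09), the sphingosine-1-phosphate receptor S1pr1 (-0.37 ± 0.08) and the ETS factor Fli1 (-0.36 ± 0.08). Vegfd was higher in females (1.03 ± 0.18, adjusted p-value 0.000672). At 1500 ppm the effect in females minus that in males passed for 4 of the 82 (4.88%, against 4.97% of all features), namely Flt4 (-0.67 ± 0.13), Tal1 (-0.68 ± 0.18), Hey1 (0.69 ± 0.17) and S1pr1 (0.77 ± 0.22), females minus males. These genes were chosen after their values were seen, and as with Cldn5 and Cdh5 the sexes were on different slides. The shares of the 82 genes are a description too, because the lists were chosen with earlier results of these data known.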

How the data were processed

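Messenger RNA of lung was measured in 24 rats, 6 per group, with the groups taken from the sample labels. The deposited intensities are the processed signals of one-colour arrays that the authors obtained with Agilent Feature Extraction 11.5.1.1, with background subtracted and with no scaling across arrays. A deposited series-wide table repeats these intensities (within 0.1% for 99.69% or more of the probes of every array). No column of per-sample values was left unused (0 columns). The normalization of the mRNA values is not given in the sources used here.

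The 42877 spots that were not controls were averaged into 30367 probes, without spots marked as outliers. Probes were named by accession through a RefSeq gene table of GRCr8, and 18355 (60.4%) matched 15443 symbols. The array was designed on rn4, so no probe coordinates are given. Each log2 signal was reduced by the 75th percentile of its array. A probe entered the tests if 5 or more of the 6 arrays of some group had it well above background (23622 probes), and a gene with several probes was represented by that of the highest mean, leaving 21261 features of which 12500 had a symbol. No probe was saturated. All arrays were scanned on 1 day. The number of arrays limits the precision.

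Doses were compared with control by lmFit and eBayes in R 4.3.3 with limma 3.58.1 and data.table (version 1.17.8), on all 24 arrays, with Benjamini-Hochberg adjustment over all features. A dose call was a 1.5-fold change with an unadjusted p-value under 0.05, and other calls used an adjusted p-value under 0.05. Slopes on dose, the difference of the effect between the sexes (8 groups) and females against males (dose as a term) were fitted likewise. Intervals are 95%. The scripts were tested on simulated data. The members and lists were chosen with earlier results of these data known. All 10 members are named, and from each other list the genes called at any dose or, where none was, the 2 with the largest change, and the 5 genes most like the mean of the members. A gene that the rule picked is left out of the text. Genes named outside this rule are marked as chosen after their values were seen, apart from the markers of heart muscle named for their detection.

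Alternatives were normexp (offset 50), quantile normalization, 2 other scalings, the series-wide intensities without scaling, omission of the filter on dim probes, a stricter filter (all 24 arrays), the mean of the probes of a gene, the methods' t-test, fits of 1 dose with control, a sex term, slide as a fixed or random block, array weights and leaving out each rat. The heart muscle level as a covariate was added after seeing the data. The methylation arrays of the study were not analysed here.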

Additional observations from a re-analysis of the deposited data

Results flagged for a closer look

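Of 36 sets of 6 rats (9 genes in 4 groups), 1 held a rat far from the others. Tie1 in rat 36 of the 1500 ppm group, a female, was at -0.94 and the nearest rat at -0.42, and this gap was 0.732 of the range of the group, above the critical value of 0.625 for 6 samples. Chance gives such a gap in about 1 of 20 sets.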

How the results depend on the processing

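None of the 9 endothelial genes was called at 600, 1000 or 1500 ppm under any of the 15 alternatives or without any 1 of the 24 rats, and the same held for the slope (12 alternatives) and for the difference of the effect between the sexes (11 alternatives). The median log2 difference ran over the alternatives from -0.08 to 0.05 at 600 ppm, from -0.15 to -0.01 at 1000 ppm and from -0.20 to 0.10 at 1500 ppm, the 0.10 being that with slide as a fixed block; the cause was not tested. Of the 2 genes lower in females, Cldn5 passed in all 10 alternatives (adjusted p-values 0.000233 to 0.00402), and Cdh5 in 9, its adjusted p-value with normexp being 0.07 (range 0.000789 to 0.07). The number of genes that differed between the sexes was 1 with normexp, 4 with quantile normalization and 5 with array weights, and ran from 2 to 4 when single rats were left out, with 4 without control rat 2, rat 28 of 600 ppm or rat 37 of 1500 ppm. With slide as a fixed block, 0 and 5 in place of 1 and 2 of the 82 further endothelial genes were called at 600 and 1000 ppm. Klf2 at 1500 ppm was called under all 15 alternatives (-1.62 to -0.82, adjusted p-values 0.0664 to 0.983), Klf4 in 14 (adjusted p-values 0.0342 to 0.983), with -0.56 under array weights, and Sox17 in 14, with -0.53 under array weights. Fibin was not called with the methods' t-test, either slide block or array weights, and Edn1 at 600 ppm with the t-test, with control and 1 dose only, with slide as a fixed block or with array weights. The number of features called at 600 ppm was 129, and 41 with normexp, 583 without the filter on dim probes, 50 with the filter on all 24 arrays, 225 with slide as a fixed block and 330 with array weights. At 1000 ppm 275 were higher and 72 lower, and with normexp 74 and 369, which also moved the median of all features from 0.01 to -0.12. The series table without scaling gave 539 and 30 and a median of 0.11. No paired analysis was possible because the groups share no rat numbers.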
